A study of Mus musculus with 68 samples.

Results

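The ligands of the Egf receptor family are growth factors that include Egf, Tgfa, Hbegf, Areg, Ereg, Btc, Nrg1 and Nrg4. These 8 genes were taken from the gene count table by their symbols, out of 56748 genes in the table, of which 34384 had at least 1 read in any library. The table holds 9 entries with these symbols, because a second entry of 186 bases shares the symbol Nrg1. That entry had 0 reads in all 68 libraries and was not used further. The study asked how organs differ in their response to circulating Egf. Wild-type C57BL/6J mice, all female and 10 weeks old, received 1 mg/kg of Egf protein in phosphate-buffered saline (PBS) by retro-orbital injection under isoflurane anaesthesia. Vehicle mice received 50 to 60 µL of PBS alone in the same way, and untreated mice formed a further control. Liver, lung, kidney and heart were flash-frozen at 2 h or 6 h, and polyadenylated RNA was sequenced. In each organ there were 4 Egf and 3 vehicle libraries at 2 h, 4 Egf and 3 vehicle libraries at 6 h, and 3 untreated libraries. Read counts measure transcripts, so the injected Egf protein is not among the values given for the Egf gene.

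The ligands are made as membrane-anchored precursors, and metalloproteases of the Adam family cut the growth factor domain free. Egf, Tgfa and Areg bind the receptor Egfr, whereas Hbegf, Btc and Ereg bind both Egfr and Erbb4. Nrg1 binds Erbb3 and Erbb4, and Nrg4 binds Erbb4. Activated Egfr signals through Ras and the MAP kinases, and several of the ligand genes are known targets of that pathway.

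The promoter of Areg is printed because Areg was the member most restricted to 1 organ and also rose there after Egf. It is the 250 bases before the annotated start, from RefSeq on build GRCm38.p6, chr5:91139349-91139598 on the plus strand, with the cAMP response element TGACGTCA, a site class bound by Creb family factors, in capitals.
Areg: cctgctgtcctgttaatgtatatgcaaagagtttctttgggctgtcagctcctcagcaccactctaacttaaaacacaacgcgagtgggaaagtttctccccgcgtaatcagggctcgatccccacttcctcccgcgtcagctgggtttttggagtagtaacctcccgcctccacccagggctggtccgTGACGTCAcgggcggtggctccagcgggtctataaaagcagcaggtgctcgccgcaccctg
The motif begins 61 bases before the start. It was searched on both strands, where it reads the same, and 1.55% of 32851 RefSeq promoter windows of this length (508 windows) hold it. RefSeq promoter entries matched 5 of the 8 members in 6 windows, and the other members with an entry held 0 matches to TGACGTCA, to the AP-1 motif TGANTCA, to the Egr motif GCGNGGGCG or to the CArG box. Over all windows these last motifs were held by 6.75%, 4.7% and 1.47%. A match describes the letters of the window and is not evidence of a bound site.

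Library totals ran between 13271813 and 24972005 counted reads, with medians of 17333162 in liver, 18083562 in lung, 17301523 in kidney and 18181981 in heart. Defining markers of each organ were present in all of its libraries: summed hepatocyte markers lay between 97487 and 132687 CPM (counts scaled to library size) in liver, and summed cardiomyocyte markers between 40496 and 55985 CPM in heart. Alveolar type II markers summed to between 33068 and 43563 CPM in lung, and proximal tubule markers to between 15788 and 20085 CPM in kidney. Some libraries also held transcripts of another organ or of fat, and 7 heart libraries held kidney tubule transcripts. Values of several stand beside the ligands they touch. Lung Egf replicate 3 at 6 h held 26814 CPM of hepatocyte markers, against a lung median of 381 CPM. Without it 0 genes were called in lung at 6 h. Kidney Egf replicate 3 at 2 h and replicate 1 at 6 h held 277 and 297 CPM of cardiomyocyte markers (kidney median 18.8 CPM). Common biological coefficients of variation were 0.224 in liver, 0.283 in lung, 0.192 in kidney and 0.389 in heart. The labels give 3 mice for the untreated group and do not say that each library of the other groups came from its own mouse, so p-values measure the spread between these libraries.

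The genes lie on 6 chromosomes of build mm39, and 3 of them sit side by side. Egf (ENSMUSG00000028017) lies on chr3:129471214-129548965 on the minus strand, Tgfa (ENSMUSG00000029999) on chr6:86172205-86252701 on the plus strand, and Hbegf (ENSMUSG00000024486) on chr18:36637980-36648858 on the minus strand. Nrg1 (ENSMUSG00000062991) spans chr8:32304579-33374825 and Nrg4 (ENSMUSG00000032311) chr9:55127506-55234128, both on the minus strand. On chromosome 5, Ereg (ENSMUSG00000029377, chr5:91222481-91241505, plus strand), Areg (ENSMUSG00000029378, chr5:91287458-91296291, plus strand) and Btc (ENSMUSG00000082361, chr5:91505120-91550853, minus strand) share an interval of 376 kb with Epgn, a further ligand of Egfr. Those 4 were its only protein-coding genes among 7 annotated there. The genes of this interval had reads in different organs: Areg had reads almost only in lung, Btc had reads in all 4 organs, and Epgn had 46 reads over all 68 libraries. The libraries do not keep the strand. The span of Nrg4 overlaps that of its antisense neighbour Fbxo22 by 4212 bases, and reads from that stretch cannot be told apart by strand. Ereg overlaps Gm19610 by 152 bases and Egf overlaps 6330410L21Rik by 1559 bases in the same way.

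Which ligand predominates in an organ before any injection was read from the untreated libraries in RPKM. These are reads scaled by gene length and by library size, adjusted with factors fitted over all 68 libraries (TMM). Scaling by length allows genes to be compared within an organ. The factors lay between 0.627 and 0.661 in untreated livers and between 1.61 and 1.63 in untreated lungs. Levels and sums compared between organs therefore depend on these factors. The leading ligand was Egf in kidney, Tgfa in liver, and Hbegf in lung and heart. Kidney was dominated by Egf, at 152 ± 21.9 RPKM (SD, n = 3), 96.2% of the summed RPKM of the 8 genes. Liver was led by Tgfa at 5.53 ± 1.21 RPKM (75.3% of the sum). Lung was led by Hbegf at 7.75 ± 1.58 RPKM (51.7%), and heart by Hbegf at 4.01 ± 0.366 RPKM (44.5%). The 8 genes summed to 7.34 RPKM in liver, 14.997 RPKM in lung, 158 RPKM in kidney and 9.02 RPKM in heart. The heart sum includes Egf at 3.23 RPKM (35.8% of the sum), whose mean was 0.600 RPKM without untreated replicate 2. That heart held 908 CPM of proximal tubule markers, so the heart sum and the share of Hbegf in it rest partly on this library. Untreated hearts 1 and 3 held 15194 and 13056 CPM of hepatocyte markers. Their Tgfa was 0.782 and 0.881 RPKM, against 0.307 RPKM in untreated heart 2. Thus each untreated heart held markers of another organ, and the part of these in the heart levels was not tested. In whole-organ RNA, fewer cells of a type and less RNA per cell cannot be told apart.

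**Figure D1:**
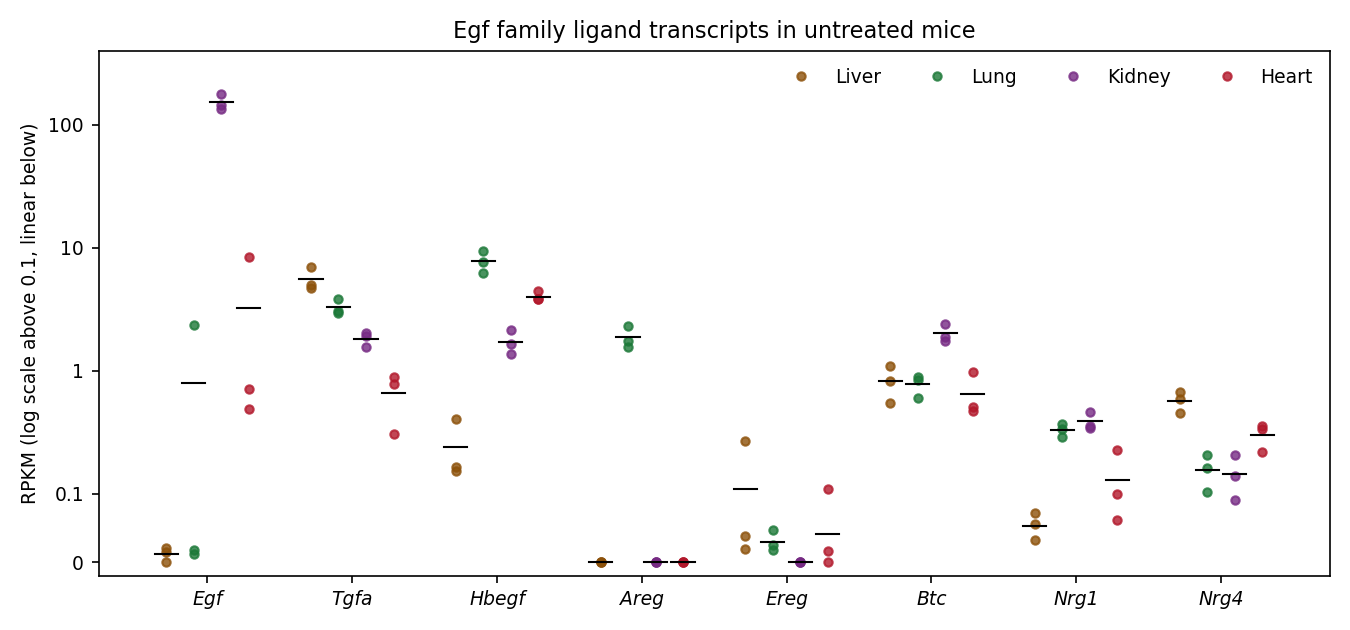
Level of each ligand in the 3 untreated libraries of liver, lung, kidney and heart, in RPKM on an axis that is logarithmic above 0.1 and linear below; points are libraries and bars are means. Egf in kidney averages 152 RPKM, Areg is above 0 in lung and at 0 in liver, kidney and heart, and Egf in heart and lung has 1 library far above the others.

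Egf, the founding member, is known to be made in the distal nephron and shed into the urine. Its untreated level was 0.0118 RPKM in liver, 0.800 ± 1.36 RPKM in lung, 152 ± 21.9 RPKM in kidney and 3.23 ± 4.56 RPKM in heart (SD, n = 3). The SD exceeded the mean in lung and heart, where a single library carried most reads. Without that library the mean was 0.0147 RPKM in lung and 0.600 RPKM in heart, against 0.0118 RPKM in liver. Tgfa, a ligand of Egfr named for its transforming activity on cultured cells, was ordered liver, lung, kidney, heart, at 5.53 ± 1.21, 3.27 ± 0.484, 1.83 ± 0.241 and 0.656 ± 0.307 RPKM. The place of liver above lung rests on the TMM factors: untreated livers held 376, 348 and 569 Tgfa reads, and untreated lungs 720, 594 and 564. Hbegf, a heparin-binding ligand needed for heart valve formation, was ordered lung, heart, kidney, liver, at 7.75 ± 1.58, 4.01 ± 0.366, 1.71 ± 0.390 and 0.240 ± 0.143 RPKM. Without untreated replicate 1 the liver mean of Hbegf was 0.158 RPKM. Tgfa and Hbegf were the members whose level differed in all 6 pairs of organs (edgeR, all adjusted p under 0.05).

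Areg, known for its part in epithelial growth and tissue repair, averaged 1.88 ± 0.404 RPKM in untreated lung and was at 0 in the other organs. The untreated lung libraries held 202 Areg reads, against 0 in liver, 0 in kidney and 0 in heart. For the organs at 0 a floor of 3 reads over each group was set. On unscaled library totals, CPM in lung was then at least 68.02-fold higher than in liver, 68.8-fold higher than in kidney and 55.5-fold higher than in heart. On TMM-scaled totals these folds would be smaller, because the factors were highest in lung. These floors cover counting error only. Btc, first isolated from a beta cell tumour, was highest in kidney at 2.02 ± 0.350 RPKM, and its levels of 0.824 ± 0.279 RPKM in liver, 0.776 ± 0.157 RPKM in lung and 0.650 ± 0.276 RPKM in heart did not differ beyond their spread (edgeR adjusted p = 0.835, 0.370 and 0.461). Ereg was near its detection limit everywhere, with 401 reads over all 68 libraries. Its highest untreated mean was 0.109 ± 0.138 RPKM in liver, against 0.0415 ± 0.0583 in heart, 0.0297 ± 0.0156 in lung and 0 in kidney. That order rested on untreated liver replicate 2, at 0.268 RPKM, without which the liver mean was 0.0290 RPKM, below heart. The level in untreated liver passed against kidney (edgeR adjusted p = 0.00377), and the other 5 pairs of organs did not pass.

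Nrg1, a neuregulin known from heart and nerve development, stood at 0.0532 ± 0.0201 RPKM in liver, 0.331 ± 0.0393 RPKM in lung, 0.387 ± 0.0683 RPKM in kidney and 0.129 ± 0.0859 RPKM in heart. Without untreated replicate 3 the heart mean was 0.0808 RPKM. Lung and kidney, the highest, were not distinguishable (edgeR adjusted p = 0.571). Nrg4, a neuregulin known as a signal secreted by fat, was highest in liver at 0.572 ± 0.109 RPKM, followed by heart at 0.302 ± 0.0728, lung at 0.157 ± 0.0527 and kidney at 0.145 ± 0.0568 RPKM. Neighbours in that order did not pass the test, at an adjusted p of 0.0707 for liver against heart, 0.0710 for lung against heart and 0.863 for lung against kidney. Over the 6 pairs of organs 31 of 48 ligand tests passed, and organs differed this widely in general: between 56.4% (liver against kidney) and 71% (liver against lung) of all 18736 genes passed in a pair. By pair the ligands passing were 6 of 8 for liver against lung (background 71%), 7 for liver against kidney (56.4%), 4 for liver against heart (61.9%), 5 for lung against kidney (63.8%), 4 for lung against heart (66.3%) and 5 for kidney against heart (61.7%). Read against these backgrounds, the counts are not a result about the ligands.

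Egf against vehicle at 2 h asked which ligand transcripts the injection changed. Hbegf, Areg and Nrg1 rose in lung, Hbegf rose in kidney, Btc and Nrg1 rose in liver, and Tgfa fell in liver. No ligand passed the test in heart. A call means a Benjamini-Hochberg adjusted p under 0.05 over all genes tested in the organ by edgeR's quasi-likelihood test. Enough reads for the test were present for 6 of the 8 genes in liver, 8 in lung, 6 in kidney and 7 in heart. Calls numbered 3 of 6 in liver, where 3.92% of all tested genes were called, and 3 of 8 in lung, where 0.84% were. In kidney 1 of 6 was called against 0.256% of all genes. In heart 0 of 7 were called against 0.211%, 1 had an unadjusted p under 0.05, and DESeq2 also called 0. The median log2 change of the tested ligands was 1.42 in liver, 0.68 in lung, 0.29 in kidney and 0.14 in heart, beside medians over all tested genes of -0.02, -0.00, -0.01 and -0.02. A gene with few reads that passes the expression filter through 1 high group tends to differ, so these counts describe the tested members only.

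**Figure D2:**
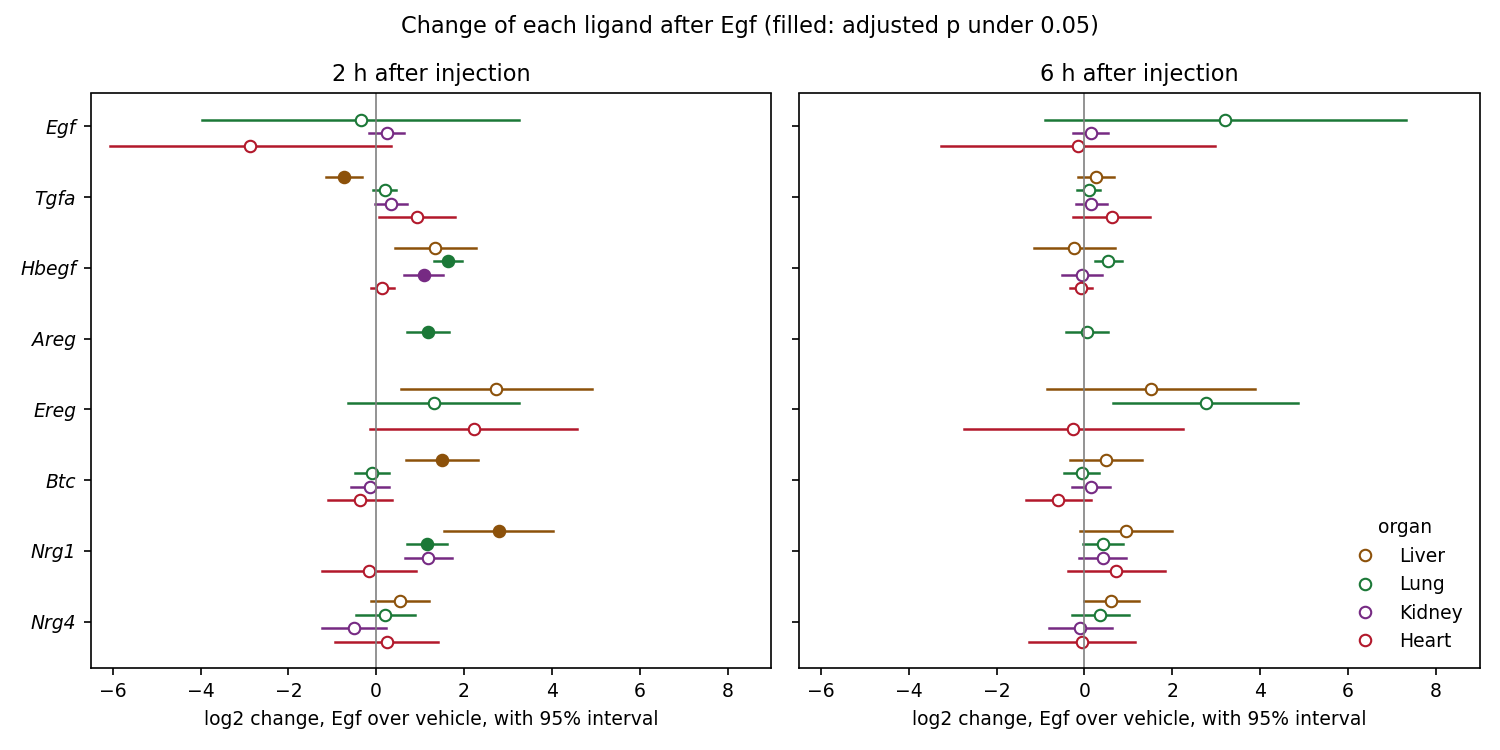
Log2 change of each ligand, Egf over vehicle, at 2 h (left) and 6 h (right) in 4 organs, with 95% confidence intervals; filled points have an adjusted p under 0.05 and genes with too few reads are not drawn. At 2 h 7 points are filled, 6 of them above 0, and at 6 h none is.

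**Figure D3:**
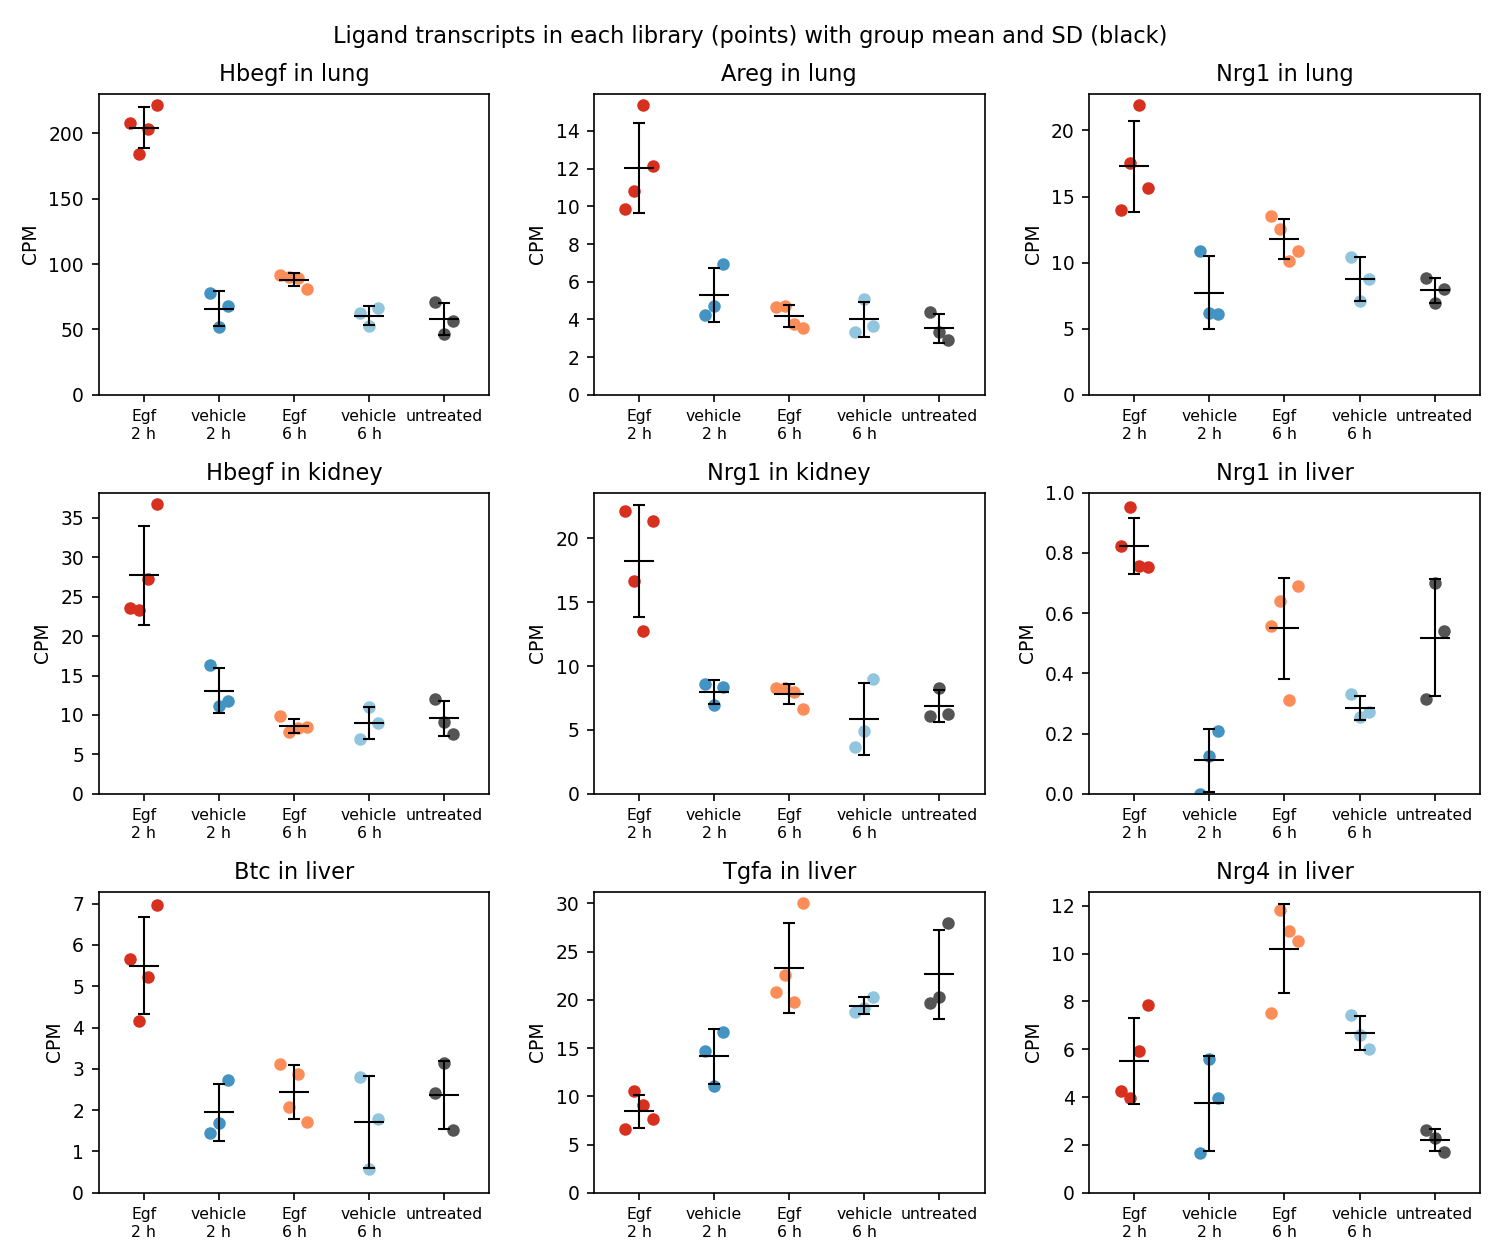
CPM of 9 ligand and organ combinations in each library (points), with the mean and SD of each group in black, for Egf and vehicle at 2 h, Egf and vehicle at 6 h, and untreated. Lung Hbegf at 2 h lies between 184 and 222 CPM after Egf and between 51.7 and 78.0 CPM after vehicle, and liver Nrg4 is lowest in the untreated group.

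The Egf transcript itself did not pass any test between groups within an organ. In kidney, where it is abundant, it had 2041, 2315, 1564 and 1489.7 CPM 2 h after Egf, against 2045, 1149 and 1506 CPM after vehicle. At 6 h the Egf kidneys had 2012, 1734, 1685 and 1899 CPM and the vehicle kidneys 1542, 1422 and 2016 CPM, and untreated kidneys had 1771, 1883 and 2277 CPM. All 5 groups overlapped. The log2 change of kidney Egf was 0.24 ± 0.19 at 2 h (95% interval -0.16 to 0.64, adjusted p = 0.898) and 0.14 ± 0.19 at 6 h (adjusted p = 0.858). In liver it had 27 reads over 17 libraries, 15 of them in vehicle replicate 3 at 2 h, and was not tested.

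Heart Egf varied between libraries of every group rather than between groups. It had 4.93, 4.94, 34.6 and 5.04 CPM at 2 h after Egf, against 240.1, 24.3 and 7.04 CPM after vehicle. At 6 h it had 64.7, 5.59, 5.88 and 14.2 CPM after Egf and 6.77, 60.5 and 7.79 CPM after vehicle, and untreated hearts had 4.91, 84.7 and 7.35 CPM. One or more libraries stood apart in each group, and the log2 change at 2 h was -2.86 ± 1.48 (adjusted p = 0.639). The 7 hearts with the most Egf, between 14.2 and 240.1 CPM, had summed markers of the thick ascending limb of the kidney (Umod and others) between 18.1 and 730.3 CPM, of the distal convoluted tubule between 15.2 and 224 CPM and of the proximal tubule between 69.0 and 2250.0 CPM. The other 10 hearts had 4.91 to 7.79 CPM of Egf, with thick ascending limb sums of 0.0536 to 2.18 CPM, distal convoluted tubule sums of 2.12 to 5.80 CPM and proximal tubule sums of 0.698 to 11.1 CPM. The ratio of Egf to the thick ascending limb sum was 0.263 to 0.415 over the 17 kidney libraries and 0.329 to 0.785 over the 7 hearts. It was 0.329 in the heart with the most Egf, within the kidney range, and above that range in the other 6. The part of kidney RNA in the heart values was not tested.

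**Figure D4:**
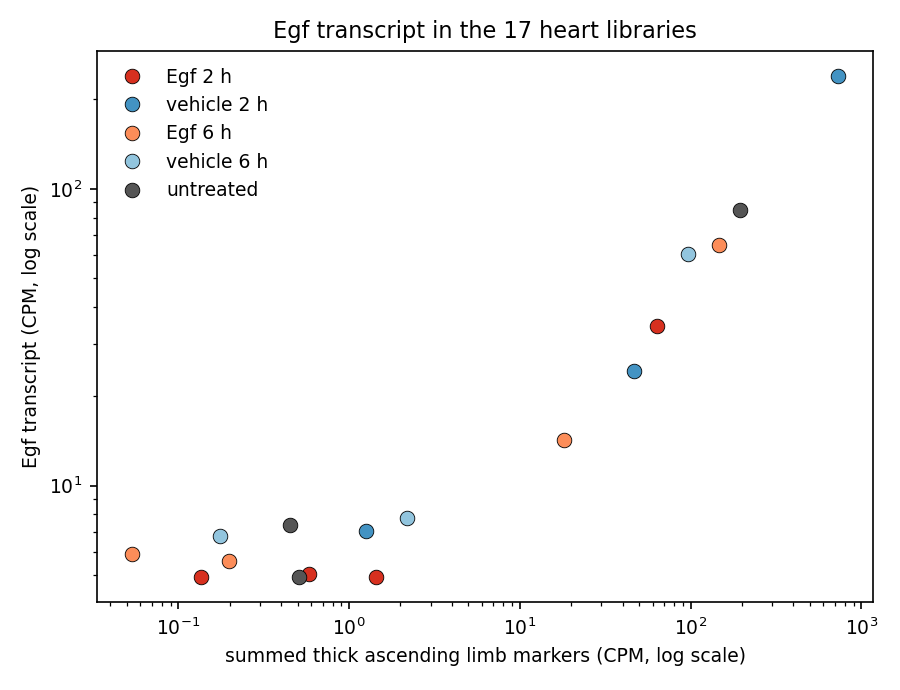
Egf transcript in the 17 heart libraries against the summed thick ascending limb markers of the same library, both in CPM on log axes, coloured by group. Libraries of all 5 groups lie along the rise, where Egf reaches 240.1 CPM, and the other 10 libraries lie between 4.91 and 7.79 CPM.

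Lung Egf reads were likewise concentrated in single libraries, with 4, 10, 26 and 11 reads at 2 h after Egf against 30, 12 and 12 after vehicle. At 6 h there were 10, 11, 4 and 147 reads after Egf and 1, 4 and 9 after vehicle, and untreated lungs had 4, 6 and 766. Untreated replicate 3, at 41.2 CPM, was also the highest of the 17 lungs in thick ascending limb markers (119 CPM), distal convoluted tubule markers (66.7 CPM) and proximal tubule markers (369 CPM). Egf replicate 4 at 6 h, at 8.39 CPM, was second in distal convoluted tubule markers at 44.9 CPM. Its thick ascending limb sum was 39.0 CPM, within the range of the other lungs.

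Tgfa was the called ligand that fell. Liver Tgfa had 6.59, 10.5, 9.07 and 7.66 CPM 2 h after Egf, against 14.7, 11.03 and 16.7 CPM after vehicle. Every Egf library was below every vehicle library, though the nearest were close. The log2 change was -0.74 ± 0.20 (95% interval -1.15 to -0.33, 0.600-fold, edgeR adjusted p = 0.0401). Livers at 6 h had 20.8, 22.6, 19.8 and 30.1 CPM after Egf and 18.7, 19.2 and 20.4 CPM after vehicle, a log2 change of 0.26 ± 0.19 (adjusted p = 0.682). Untreated livers had 19.7, 20.3 and 27.9 CPM, above both 2 h groups. Against them the Egf livers at 2 h differed by -1.42 ± 0.19 on the log2 scale (adjusted p = 7.56e-05), a call that held without each library in turn. The vehicle livers at 2 h differed from them by -0.68 ± 0.21, with no overlap but without passing (adjusted p = 0.211).

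The call on liver Tgfa against vehicle rested on single libraries: it was lost without Egf replicate 1 (adjusted p = 0.118), 3 (0.0877) or 4 (0.113) and without vehicle replicate 1 (0.166) or 3 (0.259), with log2 changes between -0.87 and -0.59. It was also lost with a covariate for cardiomyocyte markers (adjusted p = 0.0658) and with only the 2 groups in the fit (0.0568). Cardiomyocyte markers summed to only 0.291 to 4.01 CPM in liver, so this covariate rests on few reads here and for Btc and Nrg4 below. Outside liver Tgfa passed no test. Lung Tgfa had 34.3, 35.0, 48.1 and 35.7 CPM 2 h after Egf against 33.4, 34.0 and 33.4 CPM after vehicle, a log2 change of 0.19 ± 0.13 (95% interval -0.08 to 0.45, adjusted p = 0.779). Kidney Tgfa ran 10.1 to 11.4 CPM after Egf and 6.81 to 9.77 CPM after vehicle, a log2 change of 0.34 ± 0.17 (adjusted p = 0.685) although the groups did not overlap. Heart Tgfa had a log2 change of 0.93 ± 0.41 (adjusted p = 0.635). The 4 hearts with the most Tgfa, 4.25 to 6.71 CPM, were the 4 with the highest summed hepatocyte markers, 9269 to 15194 CPM. They were Egf replicate 3 at 2 h, Egf replicate 3 at 6 h and untreated replicates 1 and 3. The other 13 hearts had 1.47 to 3.49 CPM of Tgfa beside 36.6 to 5673 CPM of hepatocyte markers, and the part of liver RNA in these values was not tested.

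Areg rose in lung, the organ that expressed it. Lung Areg had 9.87, 10.8, 15.4 and 12.2 CPM 2 h after Egf, against 4.25, 4.71 and 6.95 CPM after vehicle. All Egf libraries were above all vehicle libraries. The log2 change was 1.18 ± 0.23 (95% interval 0.71 to 1.66, 2.27-fold, edgeR adjusted p = 0.0180). At 6 h Areg had 4.67, 4.71, 3.78 and 3.54 CPM after Egf and 3.31, 5.06 and 3.63 CPM after vehicle, and the overlapping groups differed by 0.06 ± 0.22 on the log2 scale (adjusted p = 0.990). Untreated lungs had 4.40, 3.31 and 2.90 CPM, and against them the Egf lungs at 2 h were higher by 1.77 ± 0.23 (adjusted p = 0.000326). The call against vehicle was lost without vehicle replicate 1 (adjusted p = 0.122) or 2 (0.116) and with only the 2 groups in the fit (0.0629). Elsewhere Areg was nearly absent: 2 reads in the 17 livers, 8 in the kidneys and 21 in the hearts. The heart reads were 1, 8, 6 and 1 at 2 h after Egf against 2, 0 and 0 after vehicle, too few to test.

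Hbegf had the smallest adjusted p of any ligand after Egf, in lung. Lung Hbegf had 208, 184, 204 and 222 CPM at 2 h after Egf, against 78.0, 51.7 and 68.3 CPM after vehicle. The lowest Egf library was above 2 times the highest vehicle library. The log2 change was 1.63 ± 0.15 (95% interval 1.31 to 1.95, 3.10-fold, edgeR adjusted p = 6.59e-05), and the call held without each library in turn, with log2 changes between 1.48 and 1.77. At 6 h lung Hbegf had 91.7, 89.9, 89.6 and 81.1 CPM after Egf, against 62.7, 52.4 and 66.2 CPM after vehicle. These groups did not overlap either, but the log2 change of 0.54 ± 0.15 (95% interval 0.24 to 0.85) did not pass over all genes (unadjusted p = 0.00175, adjusted p = 0.652). Untreated lungs had 70.6, 46.9 and 56.6 CPM. The Egf lungs differed from these by 1.82 ± 0.15 at 2 h (adjusted p = 1.03e-05) and by 0.60 ± 0.15 at 6 h (adjusted p = 0.0847), and at 6 h DESeq2 called the difference (0.00837) where edgeR did not.

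Monocyte and neutrophil markers were higher beside the lung ligands, and lymphocyte markers were not. Of the listed monocyte markers 3 of 3 were called higher at 2 h, with summed levels of 141 to 233 CPM after Egf and 55.8 to 62.5 CPM after vehicle. Neutrophil markers were called higher in 3 of 5 cases, with sums of 108 to 234 CPM after Egf and 54.9 to 103 CPM after vehicle. Macrophage markers were called in 0 of 4 cases, with 2 at an unadjusted p under 0.05. B cell markers summed to 30.0 to 67.3 CPM after Egf and 57.1 to 74.5 CPM after vehicle, with 0 of 3 called and 1 at an unadjusted p under 0.05. T cell markers summed to 6.22 to 13.1 CPM after Egf and 12.1 to 13.3 CPM after vehicle, with 0 of 3 called and 0 at an unadjusted p under 0.05. The 4 Egf lungs at 2 h were the 4 highest of 17 in Hbegf, in Nrg1 and in monocyte markers. The other 13 lungs had 46.9 to 91.7 CPM of Hbegf and 6.09 to 13.5 CPM of Nrg1 beside monocyte sums of 52.4 to 113 CPM. Hepatocyte markers summed to 381 to 3304 CPM after Egf and to 11.1 to 565 CPM after vehicle, with 0 of 8 called and 0 at an unadjusted p under 0.05. The part of leukocytes in the ligand changes was not tested. With a covariate for hepatocyte markers the log2 changes were 1.64 for Hbegf (adjusted p = 0.000361), 1.203 for Areg (0.0389) and 1.34 for Nrg1 (0.00819).

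Kidney Hbegf had 23.6, 23.3, 27.2 and 36.7 CPM 2 h after Egf, against 16.4, 11.1 and 11.8 CPM after vehicle. Every Egf kidney was above every vehicle kidney. The log2 change was 1.08 ± 0.21 (95% interval 0.64 to 1.52, 2.12-fold, edgeR adjusted p = 0.0407). At 6 h kidneys had 9.87, 7.84, 8.31 and 8.51 CPM after Egf and 6.92, 11.03 and 9.01 CPM after vehicle, which overlapped (-0.06 ± 0.21, adjusted p = 0.948). Untreated kidneys had 11.98, 9.14 and 7.55 CPM, and the Egf kidneys at 2 h were higher by 1.53 ± 0.21 (adjusted p = 0.000881).

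Markers of the adrenal cortex, which lies beside the kidney, summed to 2.04 to 46.6 CPM in the Egf kidneys at 2 h and to 1.37 to 2.10 CPM in the vehicle kidneys. With 4 of 5 markers tested, 0 were called in edgeR and 4 had an unadjusted p under 0.05. The 3 kidneys with the most Hbegf were also the 3 with the highest adrenal sums, 15.7 to 46.6 CPM, and the other 14 lay between 1.37 and 3.04 CPM. With a covariate for adrenal cortex markers the log2 change of Hbegf was 0.88 (adjusted p = 0.421). The call was also lost with a covariate for hepatocyte markers (adjusted p = 0.0663), with only the 2 groups in the fit (0.467), without the libraries that held markers of another organ or of fat (0.0668), and without Egf replicate 1 (0.0586) or 4 (0.133) or vehicle replicate 1 (0.0633), 2 (0.152) or 3 (0.212). Its log2 change stayed between 0.88 and 1.28 over all of these.

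In liver and heart Hbegf did not pass. Liver Hbegf had 20, 36, 23 and 30 reads at 2 h after Egf, against 14, 7 and 7 after vehicle. All Egf livers lay above all vehicle livers, with a log2 change of 1.35 ± 0.44 (adjusted p = 0.112). Heart Hbegf had 20.3, 21.02, 23.6 and 24.5 CPM at 2 h after Egf, against 22.6, 17.7 and 20.5 CPM after vehicle. These groups overlapped, and the log2 change was 0.14 ± 0.12, with a 95% interval of -0.11 to 0.40 (adjusted p = 0.729). The upper end of that interval is below the lower end of the interval in lung.

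Btc rose in liver. Liver Btc had 5.65, 4.15, 5.23 and 6.97 CPM 2 h after Egf, against 1.44, 1.68 and 2.72 CPM after vehicle. All Egf livers were above all vehicle livers. The log2 change was 1.49 ± 0.39 (95% interval 0.68 to 2.31, 2.82-fold, edgeR adjusted p = 0.0356). At 6 h Btc had 3.12, 2.08, 2.86 and 1.72 CPM after Egf and 2.80, 0.575 and 1.79 CPM after vehicle, which overlapped (0.48 ± 0.39, adjusted p = 0.702). Untreated livers had 2.41, 3.15 and 1.52 CPM, and the Egf livers at 2 h exceeded them by 1.22 ± 0.38 (adjusted p = 0.0274). The call against vehicle was lost without Egf replicate 1 (adjusted p = 0.0698), 3 (0.0554) or 4 (0.101), without vehicle replicate 1 (0.170) or 2 (0.120), and with a covariate for cardiomyocyte markers (0.0693). The call against untreated livers was lost without Egf replicate 1 (0.0569) or 4 (0.0644) or untreated replicate 1 (0.0661) or 3 (0.148). Outside liver Btc passed no test: its log2 change at 2 h was -0.10 ± 0.18 in lung (adjusted p = 0.962), -0.15 ± 0.21 in kidney (0.979) and -0.37 ± 0.35 in heart (0.764).

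Ereg, a low-abundance ligand known from inflamed and ovulating tissue, passed no edgeR test between the groups of an organ with all libraries in the fit, and its reads were few throughout. In liver it had 11, 8, 7 and 17 reads at 2 h after Egf, against 3, 0 and 1 after vehicle. In heart it had 15, 14, 7 and 17 reads after Egf, against 1, 0 and 5 after vehicle. The liver groups did not overlap. The heart groups overlapped in CPM, where the lowest Egf heart had 0.254 CPM and the highest vehicle heart 0.293 CPM. The log2 changes were 2.74 ± 1.04 in liver (adjusted p = 0.182) and 2.22 ± 1.10 in heart (adjusted p = 0.635). Lung Ereg had 12, 24, 17 and 20 reads after Egf, against 6, 5 and 12 after vehicle, and these overlapped (1.31 ± 0.92, adjusted p = 0.802). At 6 h 1 Egf lung carried 91 reads and the others 3 to 10, against 2 to 5 after vehicle. Against untreated libraries Ereg passed in liver at 2 h without untreated replicate 2 (2.98, adjusted p = 0.0491), and in lung at 6 h in DESeq2 (adjusted p = 0.0456). Kidney had 9 Ereg reads over 17 libraries.

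Nrg1 was called higher in lung and liver at 2 h. Lung Nrg1 had 14.01, 17.5, 21.9 and 15.7 CPM after Egf, against 10.9, 6.18 and 6.09 CPM after vehicle. The Egf lungs were all above the vehicle lungs. The log2 change was 1.16 ± 0.22 (95% interval 0.70 to 1.62, 2.23-fold, edgeR adjusted p = 0.0160). At 6 h it had 13.5, 12.5, 10.1 and 10.9 CPM after Egf and 10.4, 7.09 and 8.80 CPM after vehicle (0.43 ± 0.21, adjusted p = 0.935). Untreated lungs had 8.80, 6.92 and 8.01 CPM, and the Egf lungs at 2 h were higher by 1.13 ± 0.22 (adjusted p = 0.00571). The call against vehicle was lost without vehicle replicate 2 (adjusted p = 0.116) or 3 (0.129) and with only the 2 groups in the fit (0.119).

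Liver Nrg1 rested on few reads: 14, 17, 12 and 12 at 2 h after Egf, against 0, 2 and 3 after vehicle. At 6 h there were 10, 12, 5 and 16 reads after Egf and 6, 4 and 5 after vehicle, and untreated livers had 6, 12 and 11. The vehicle livers at 2 h were the lowest of the 5 groups, and the untreated livers lay between the Egf and vehicle livers of 2 h. The log2 change at 2 h was 2.79 ± 0.59 (95% interval 1.55 to 4.03, edgeR adjusted p = 0.00837), a fitted value to which a vehicle library at 0 contributes. It was called without each library in turn, with log2 changes between 2.28 and 3.52. Against untreated livers the Egf livers at 2 h differed by 0.67 ± 0.45 (adjusted p = 0.278), and the vehicle livers differed from untreated livers by -2.13 ± 0.64 (adjusted p = 0.206).

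Beside these liver ligands, summed adipocyte markers stood at 17.1 to 22.8 CPM 2 h after Egf and at 1.42 to 3.12 CPM after vehicle, with 2 of 6 tested and 1, Cidec, called higher. Monocyte markers summed to 3.57 to 4.39 CPM after Egf and to 1.75 to 2.74 CPM after vehicle, and neutrophil markers to 2.68 to 8.06 CPM after Egf and 1.68 to 2.74 CPM after vehicle. Of 2 monocyte and 3 neutrophil markers tested 0 were called in edgeR (1 and 2 at an unadjusted p under 0.05), and of 8 hepatocyte markers 0 (0 at an unadjusted p under 0.05). The part of other cell types in the liver values was not tested. Without Egf replicate 1 at 2 h, the liver that held 121 CPM of adrenal cortex markers, Nrg1 stayed called (adjusted p = 0.0171) and Tgfa (0.118) and Btc (0.0698) did not.

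Kidney Nrg1 had 22.1, 16.7, 12.7 and 21.4 CPM 2 h after Egf, against 8.62, 6.94 and 8.37 CPM after vehicle. The groups did not overlap, and the log2 change of 1.19 ± 0.25 (95% interval 0.65 to 1.73) did not pass in edgeR (adjusted p = 0.0743). It passed in DESeq2 (adjusted p = 0.000837), without Egf replicate 3 (0.0275) and without the libraries that held markers of another organ or of fat (0.0433). Untreated kidneys had 6.11, 8.31 and 6.22 CPM, and the Egf kidneys at 2 h were higher by 1.40 ± 0.26 (adjusted p = 0.00654). At 6 h Egf kidneys ran 6.66 to 8.29 CPM and vehicle kidneys 3.65 to 9.01 CPM. Heart Nrg1 had a log2 change of -0.17 ± 0.50 at 2 h (adjusted p = 0.941).

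Nrg4 in liver was called higher than untreated after vehicle at 6 h and after Egf at both times. Liver Nrg4 had 4.24, 3.98, 5.92 and 7.85 CPM 2 h after Egf, against 1.65, 5.61 and 3.98 CPM after vehicle. At 6 h it had 7.52, 11.8, 10.95 and 10.5 CPM after Egf and 7.42, 6.58 and 6.01 CPM after vehicle. Untreated livers had 2.62, 2.28 and 1.72 CPM. All libraries at 6 h were above all untreated ones, while the Egf and vehicle groups overlapped at 2 h. The vehicle livers at 6 h were higher than untreated livers by 1.60 ± 0.34 on the log2 scale (95% interval 0.87 to 2.32, 3.02-fold, edgeR adjusted p = 0.0335). The Egf livers were higher than untreated livers by 1.31 ± 0.33 at 2 h (adjusted p = 0.00955) and by 2.21 ± 0.33 at 6 h (4.62-fold, adjusted p = 0.000944). These comparisons share the untreated libraries. Egf against vehicle gave 0.54 ± 0.32 at 2 h (adjusted p = 0.478) and 0.61 ± 0.30 at 6 h (adjusted p = 0.594), and vehicle at 6 h against vehicle at 2 h gave 0.82 ± 0.33 (adjusted p = 0.278).

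The vehicle call on liver Nrg4 was lost without vehicle replicate 1 (adjusted p = 0.174) or 2 (0.113), without untreated replicate 1 (0.0722), 2 (0.112) or 3 (0.131) and with a covariate for cardiomyocyte markers (0.147), and the Egf call at 2 h without untreated replicate 3 (0.0598). Its antisense neighbour Fbxo22 differed from untreated livers by 0.34 ± 0.13 after vehicle at 6 h (adjusted p = 0.260), by -0.06 after Egf at 2 h (adjusted p = 0.740) and by 0.44 ± 0.12 after Egf at 6 h (adjusted p = 0.0437). In other organs Nrg4 was not called after Egf, with log2 changes at 2 h of 0.21 ± 0.32 in lung, -0.50 ± 0.34 in kidney and 0.24 ± 0.55 in heart. The 3 hearts with the most Nrg4, 4.10 to 5.72 CPM, were the 3 with the highest summed adipocyte markers, 340.0 to 957 CPM. The other 14 hearts had 0.916 to 1.96 CPM of Nrg4 beside 30.7 to 115 CPM of adipocyte markers, and the part of fat in these values was not tested.

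By 6 h no ligand was called between Egf and vehicle in any organ. Of 27 tests 0 passed in edgeR, with 2 at an unadjusted p under 0.05 (Hbegf and Ereg in lung), and DESeq2 called 0 in each organ. The background was low too, with 0.0883% of genes called in liver, 0% in lung, 0% in kidney and 0.0128% in heart. Whether the Egf effect itself differed between 6 h and 2 h was tested as an interaction, and 0 of 27 ligand tests passed in edgeR, with 8 at an unadjusted p under 0.05. The share of all genes called in that test was 1.03% in liver, 0.0417% in lung, 0.0192% in kidney and 0.0128% in heart. DESeq2 called 3, which were Hbegf in lung, at -1.09 ± 0.20 in edgeR (adjusted p = 0.0763), Tgfa in liver, at 1.00 ± 0.28 (adjusted p = 0.0942), and Hbegf in kidney, at -1.14 ± 0.29 (adjusted p = 0.384). The adjusted p-values in DESeq2 were 0.00125, 0.0393 and 0.0490.

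Vehicle was also set against untreated libraries, a contrast in which injection, anaesthesia and time cannot be told apart. At 2 h 0 of 27 ligand tests passed in edgeR, with 6 at an unadjusted p under 0.05, beside 0.155% of all genes called in liver, 0.0656% in lung, 0.0256% in kidney and 0.0128% in heart. At 6 h 1 of 6 passed in liver (Nrg4, background 0.67%) and 0 passed in lung, kidney and heart (backgrounds 0.101%, 0.211% and 0.0192%), with 1, 0 and 0 at an unadjusted p under 0.05. DESeq2 called 1 in liver over both times and 0 in the other organs. Between vehicle at 6 h and vehicle at 2 h 0 of 27 ligand tests passed in edgeR, with 4 at an unadjusted p under 0.05, beside 1.55% of genes in liver, 0.441% in lung, 0.179% in kidney and 0.0384% in heart. Several vehicle groups at 2 h lay off the untreated level without passing, among them liver Tgfa and Nrg1 above. Kidney Tgfa had 9.34, 6.81 and 9.77 CPM in vehicle kidneys at 2 h, against 15.2, 14.3 and 11.5 CPM in untreated kidneys. These groups did not overlap, at -0.66 ± 0.18 on the log2 scale (adjusted p = 0.223).

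Egf against untreated libraries, which shares its Egf libraries with Egf against vehicle, called 3 of 6 ligands in liver at 2 h, where 24.1% of all genes were called. In lung 3 of 8 were called (6.41% of genes), in kidney 2 of 6 (3.8%) and in heart 0 of 7 (0.756%). Those in liver were Tgfa, Btc and Nrg4, those in lung Hbegf, Areg and Nrg1, and those in kidney Hbegf and Nrg1. At 6 h 1 of 6 was called in liver (Nrg4, 3.89% of genes), and 0 in lung (0.596%), kidney (0.319%) and heart (0.141%), with 4, 0 and 0 at an unadjusted p under 0.05. In heart 1 ligand had an unadjusted p under 0.05 at 2 h, and DESeq2 called 0.

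Whether the Egf effect at 2 h differed among the organs was tested in 1 fit of all 68 libraries. Tgfa (adjusted p = 0.0215), Hbegf (0.00191), Btc (0.0143) and Nrg1 (0.0431) passed, 4 of 8 beside 2.19% of 18736 genes. Egf (0.600), Areg (0.525), Ereg (0.943) and Nrg4 (0.804) did not. Areg had enough reads for the test within an organ in lung only, and Egf in liver and Ereg in kidney had too few. For these genes the result does not show similar effects among organs. Btc responded differently in liver than in each other organ, by 1.63 ± 0.42 on the log2 scale against lung (adjusted p = 0.0255), 1.67 ± 0.42 against kidney (0.0222) and 1.89 ± 0.44 against heart (0.00654). The Tgfa effect in liver differed from that in heart by -1.66 ± 0.36 (adjusted p = 0.00378). Heart Tgfa 2 h after Egf was 6.71 CPM in replicate 3 and 2.77 to 3.49 CPM in the others. That replicate was among the 4 hearts with the most hepatocyte markers. The vehicle hearts of 2 h all held markers of another organ, and the part of these in the difference was not tested. For Hbegf the effect in lung exceeded that in heart by 1.48 ± 0.27 (adjusted p = 0.0239) and that in liver exceeded heart by 1.24 ± 0.36 (0.0468), while lung and kidney differed by 0.54 ± 0.27 (1.00). The Nrg1 effect was larger in liver than in heart by 3.01 ± 0.74 (adjusted p = 0.0120). The counts by pair were 1 of 8 for liver against lung (1.63% of genes), 1 for liver against kidney (1.45%), 4 for liver against heart (2.53%), 1 for lung against heart (0.0374%), 0 for lung against kidney (0%, 1 at an unadjusted p under 0.05) and 0 for kidney against heart (0.0213%, 3 at an unadjusted p under 0.05).

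Each replicate was left out in turn, from all 4 organs at once. The Hbegf difference passed in all 7 such fits. Tgfa was lost without Egf replicate 3 (adjusted p = 0.0690), Egf replicate 4 (0.0651) or vehicle replicate 3 (0.201). Btc was lost without Egf replicate 1 (0.0614) or 4 (0.0647) or vehicle replicate 1 (0.197) or 2 (0.0768). Nrg1 was lost without Egf replicate 1 (0.112), 2 (0.177) or 4 (0.0941) or vehicle replicate 1 (0.662) or 2 (0.0576). With limma's voom in place of edgeR Btc alone passed (0.0146), and Tgfa (0.0761), Hbegf (0.352) and Nrg1 (0.162) did not. At 6 h 0 of 8 ligands differed among organs in edgeR (0.048% of genes did), with 0 at an unadjusted p under 0.05, and voom also called 0. By pair of organs 0 passed at 6 h as well, with 0 or 1 of 8 at an unadjusted p under 0.05, beside 0.0961% of genes for liver against lung, 0.048% for liver against kidney, 0.0267% for liver against heart and 0% for the other pairs.

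Genes that act with the ligands were read from lists of the pathway. The 4 receptors, Egfr, Erbb2, Erbb3 and Erbb4, were tested in each organ, and 1 call was made at 2 h: Erbb3, a receptor of Nrg1, fell in liver, averaging 20.4 ± 4.82 CPM after Egf (SD, n = 4) and 43.8 ± 19.2 CPM after vehicle (SD, n = 3), with a log2 change of -1.10 ± 0.29 (edgeR adjusted p = 0.0404). Of 18 genes of ligand shedding and trafficking, such as the Adam proteases and their iRhom partners, 13 were tested in liver, 16 in lung, 15 in kidney and 16 in heart at 2 h. In edgeR 0 were called, with 0, 2, 0 and 1 at an unadjusted p under 0.05 in these organs. Their median log2 changes were 0.11, 0.05, 0.09 and 0.11 in these organs. These lists stand beside 3.92% of all genes called in liver, 0.84% in lung, 0.256% in kidney and 0.211% in heart. Among 15 feedback genes of Egfr signalling, liver had 4 called higher and 1 lower, lung 0 (8 at an unadjusted p under 0.05), kidney 1 (Errfi1, an Egfr inhibitor) and heart 1 (Spred1, a Ras pathway inhibitor). In liver the log2 change was 2.09 ± 0.14 for Spred1 (edgeR adjusted p = 4.56e-08), 4.58 ± 0.49 for the MAP kinase phosphatase gene Dusp5 (1.71e-05), 2.11 ± 0.33 for Dusp4, another such phosphatase (0.000672), and -1.64 ± 0.36 for Spry4, an inhibitor of receptor signalling (0.0100). It was 0.70 ± 0.11 for Errfi1 in kidney (adjusted p = 0.0194) and 0.52 ± 0.10 for Spred1 in heart (0.0408). The list's medians were 0.31 in liver, 0.39 in lung, 0.22 in kidney and 0.19 in heart. At 6 h 0 of 138 tests on these lists passed, with 12 at an unadjusted p under 0.05. The remaining ligands, Epgn, Nrg2 and Nrg3, had 46, 2652 and 3 reads over all libraries, and only 1 of them was tested, in lung and in heart, without a call.

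Against untreated libraries 2 of 4 receptors were called lower in liver 2 h after Egf, and of 13 shedding and trafficking genes 1 was called higher and 3 lower, where 24.1% of all genes were called. At 2 h after Egf, Erbb3 had a log2 change of -1.78 ± 0.29 (edgeR adjusted p = 0.000416). Erbb2, a receptor subunit without a ligand of its own, had one of -1.51 ± 0.46 (adjusted p = 0.0253). The Erbb2 call rests on few reads, at 0.453 ± 0.298 CPM after Egf and 1.31 ± 0.662 CPM in untreated livers (SD). The change of Adam10, a protease that sheds Egf and Btc, was -0.49 ± 0.13 (adjusted p = 0.0114), and that of Furin, which trims the prodomains of such proteases, was -0.98 ± 0.29 (adjusted p = 0.0245). Bace1, a protease that cuts Nrg1, had -0.80 ± 0.22 (adjusted p = 0.0167), and Cnih1, which acts in export from the endoplasmic reticulum, was the member called higher, at 0.66 ± 0.18 (adjusted p = 0.0134).

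For each ligand the genes with the most similar profile over the 17 libraries of its highest untreated organ were named by Pearson correlation of log2 CPM, as a description over libraries that share treatment and RNA composition. In kidney Egf was most like Cyyr1 (r = 0.926), Thoc2l (r = 0.886) and Itih5 (r = 0.882). Liver Tgfa ran closest to Smurf1 (r = 0.971), Slc12a7 (r = 0.971) and Myorg (r = 0.966). For Hbegf in lung the nearest were Trib1 (r = 0.956), Tnfrsf12a (r = 0.928) and Tuft1 (r = 0.922); Tnfrsf12a is the Tweak receptor. Lung Areg was nearest to Pitpna (r = 0.934), Fcgr3 (r = 0.933) and Ipo7 (r = 0.932). Btc in kidney was most like Gsdmc2 (r = 0.860), Septin10 (r = 0.834) and Trim21 (r = 0.827), and Ereg in liver, its highest organ through 1 library, was nearest to its own family member and neighbour Btc (r = 0.808). The nearest to kidney Nrg1 were Chka (r = 0.935), Agfg2 (r = 0.928) and Ammecr1l (r = 0.882), and to liver Nrg4 Ccdc85b (r = 0.866), Kpna2 (r = 0.865) and Efhd2 (r = 0.861).

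Over the means of all 20 groups, which mostly separate the organs, the nearest genes were others. Among those nearest to Egf were Cubn (r = 0.995), a proximal tubule receptor, and Bcat1 (r = 0.994). Hbegf ran with Fam110d (r = 0.978), Emp1 (r = 0.973) and Sema7a (r = 0.972). Areg ran with Cibar2 (r = 0.987), Agr3 (r = 0.987) and Kcne2 (r = 0.986), and Nrg4 with Arfgap2 (r = 0.953), Manf (r = 0.947) and Gorasp2 (r = 0.946).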

How the data were processed

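The authors deposited whole-number counts of reads per gene for 68 libraries, with gene symbol, position and length. Per the submitters' processing notes, HISAT2 2.0.5, featureCounts 1.5.0-p3 and build mm39 were used. The sources used here do not say how multimapped reads were handled. Strand is not kept by the libraries, so reads from stretches where antisense genes overlap cannot be told apart by strand. The 8 ligands and the lists of pathway and marker genes were chosen with earlier results of these data known.

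The 17 libraries of each organ, in 5 groups, were fitted together with edgeR 4.0.16 (and limma 3.58.1) in R 4.3.3 by the robust quasi-likelihood test, after filterByExpr and TMM scaling. Effects were compared among organs in 1 fit of 68 libraries in 20 groups. Benjamini-Hochberg adjustment ran over every gene that a fit tested, with calls at an adjusted p under 0.05. SE is the log2 change divided by the square root of F. CPM of members uses TMM-scaled totals of the organ fit, while sums of marker genes and the Areg floors use library totals. RPKM was computed from the counts, the TMM-scaled totals of the 68-library fit and the deposited gene lengths. The steps were tested on simulated data.

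All 8 members are named, and up to 4 called genes of each pathway list per Egf comparison. For likeness the 3 genes with the highest Pearson correlation of log2 CPM (prior count 2) are named, among genes of mean CPM of at least 1, leaving out predicted genes; 1 gene this rule names is not reported here. Alternatives were RLE scaling, no expression filter, DESeq2 1.42.0, limma's voom (among organs), each replicate left out, and only the 2 groups compared. Further ones were covariates for hepatocyte, cardiomyocyte or adrenal cortex markers. A block was also fitted, of replicate numbers within organs and of the numbers ending the library names among organs. A covariate for proximal tubule markers in heart and lung, and a fit without libraries holding markers of another organ or of fat (sums at least 10 times the median of the organ and at least 100.0 CPM), were added after seeing the data. All 68 library columns were used, and 0 were left out.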

Additional observations from a re-analysis of the deposited data

Results flagged for a closer look

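In 54 groups of 4 libraries 1 library lying far from the others was looked for, and 6 ligand values stood apart in this way, where chance gives about 1 in 20 groups. In lung, Egf replicate 4 at 6 h stood apart for the Egf transcript at 8.39 CPM (the other 3 at 0.236 to 0.577 CPM) and for Ereg at 5.19 CPM (0.154 to 0.590 CPM). Egf replicate 3 at 2 h stood apart for lung Tgfa at 48.1 CPM (34.3 to 35.7 CPM). In heart, the Egf transcript stood apart in Egf replicate 3 at 2 h at 34.6 CPM (4.93 to 5.04 CPM) and in Egf replicate 1 at 6 h at 64.7 CPM (5.59 to 14.2 CPM). Heart Ereg stood apart in Egf replicate 3 at 6 h at 0.381 CPM, where the others had 0 to 0.0643 CPM.

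The effect of Egf at 2 h differed among the 4 organs for Hbegf (edgeR adjusted p = 0.00191), Btc (0.0143), Tgfa (0.0215) and Nrg1 (0.0431), tested as a difference of effects over all genes.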

How the results depend on the processing

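Apart from leaving out replicates, 148 counts of called ligands were recomputed under other settings, of which 133 stayed within 1.5 times the original and 15 moved. Of 184 values of single ligands 152 kept their side of the threshold, 21 lost a call, 11 gained one and 0 reversed. In liver at 2 h Egf against vehicle called 3 ligands, against 1 with a cardiomyocyte covariate, 1 without libraries holding markers of another organ or of fat (here Egf replicate 1), and 1 to 3 with a replicate left out (1 without Egf replicate 1, 3 or 4 or vehicle replicate 1). Liver vehicle against untreated called 1, against 0 with the cardiomyocyte covariate and 0 to 1 with a replicate left out, and Egf against untreated called 4, against 2 (without untreated replicate 3) to 5. In lung Egf against vehicle at 2 h called 3, against 1 with only the 2 groups and 1 (without vehicle replicate 2) to 3 with a replicate left out, and Egf against untreated called 3, against 5 in DESeq2. In kidney at 2 h Egf against vehicle called 1, against 2 in DESeq2, 0 with a hepatocyte covariate, 0 with an adrenal cortex covariate, 0 with only the 2 groups, and 0 to 2 with a replicate left out. Without the kidneys holding other markers it also called 1, Nrg1 in place of Hbegf. The change of effect between 6 h and 2 h called 0 in liver, lung and kidney, against 1 in DESeq2 in each. Among organs 4 ligands were called at 2 h, against 1 in limma's voom and 1 to 3 with a replicate left out. Over the pairs of untreated organs 31 calls compared with 30 to 33 under all settings. Where a setting ended a call, the cause was not tested.

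Whether replicate numbers pair the libraries was checked by the correlation of deviations from group means. Across organs the median r was 0.0336 over 102 pairs of libraries with the same number, of which 33 exceeded 0.1, against -0.0156 over 252 pairs with different numbers, of which 64 did. Within organs same-numbered medians lay between 0.0312 and 0.111. The names of the libraries end in the same numbers in every organ, but the labels do not say that a number marks a mouse or a day. The numbers were therefore not taken to pair the libraries. The labels give 3 untreated mice, so untreated libraries of different organs share mice. The main fit of all organs treats them as independent. Within organs the block used the replicate numbers, shared by the groups of the organ. With the replicate block Egf against vehicle at 2 h called 0 ligands in kidney (Hbegf 1.00 on the log2 scale, adjusted p = 0.152) and 2 in lung (Areg 1.22, adjusted p = 0.0557). The block gave 1 call in the change of effect in lung, Hbegf at -1.09 (adjusted p = 0.0355). It added Hbegf against untreated in liver at 2 h (1.12, adjusted p = 0.0466) and in lung at 6 h (0.62, adjusted p = 0.0423). Among organs a different block was used, of the numbers that end the library names. It left 3 calls, without Nrg1 (adjusted p = 0.0727).

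Depth limits Ereg, liver Nrg1 and the Egf transcript in liver and most lungs, which rest on few reads. The Egf comparison at 2 h in heart could not be fitted without the hearts holding other markers, since all 3 vehicle hearts of 2 h held them.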
